A study of Mus musculus with 6 samples.

Results

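The Dlx family and Msx2 are 7 homeobox genes, Dlx1, Dlx2, Dlx3, Dlx4, Dlx5, Dlx6 and Msx2, taken by symbol from the 23366 genes listed in RNA-seq count files of mouse palatal shelves at E14.25. All 7 were listed, and 6 had enough reads to be tested. Messenger RNA was sequenced from 3 wild type libraries, numbered 2, 3 and 4, and 3 libraries of genotype Kmt2dfl/fl Wnt1-Cre, numbered 1, 2 and 3, called the knockout here. Kmt2d encodes a histone methyltransferase, and Wnt1-Cre removes its floxed alleles in the neural crest lineage. That lineage gives rise to most of the palatal mesenchyme but not to the epithelium, vessel endothelium, blood or skeletal muscle of the palate. Whether the wild type embryos carried Cre or a floxed allele, and how many embryos made up a library, is not stated in the labels. The labels call the libraries biological replicates, and no batch or litter is named.

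Dlx and Msx proteins are transcription factors that bind AT-rich DNA through a homeodomain. The Dlx genes lie in 3 pairs on the chromosomes, Dlx1 with Dlx2, Dlx3 with Dlx4 and Dlx5 with Dlx6, and the genes of a pair share enhancers and are expressed in overlapping places. In the pharyngeal arches Dlx1 and Dlx2 are active in the upper and the lower jaw and are needed for a closed palate in mice, whereas Dlx5 and Dlx6 specify the lower jaw under endothelin signalling. Msx2 is a target of BMP signalling in skull, teeth and palate.

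Gene counts totalled 12721979 to 24916079 read pairs per library, so 1 pair was worth 0.0356 to 0.0757 CPM, the depth-normalised read count used below, scaled by the trimmed mean of M-values. Knockout replicate 2 stood apart, in that 47.5% of its listed pairs fell outside genes where the range of the other 5 was 12.3% to 18.1%. The fold changes of the members are given with and without knockout replicate 2. Knockout replicates 1 and 3 differed in another share, with 30.3% and 27.7% of listed pairs not unique. That share was 18.4%, 20.7% and 20.99% in wild type replicates 2, 3 and 4, and 18.1% in knockout replicate 2. The fits without knockout replicate 2 thus compare libraries that differ by group in this share, and its part in the fold changes was not tested. The targeted gene, listed as Mll2, had 197, 211 and 171 CPM in wild type libraries and 254, 539 and 193 CPM in knockout libraries, and a count over the whole gene does not check the deletion. Markers of palatal mesenchyme were present, led by Prrx1, which averaged 591 ± 34.8 CPM over wild type libraries and 801 ± 135 CPM over knockout libraries (SD, n = 3 each). The 12 mesenchyme markers summed to 1251 to 1325 CPM for wild type libraries and to 1430 to 1554 CPM for knockout libraries, though 7 of the 12 had a negative log2 fold change. Without Prrx1 the other 11 summed to 689, 631 and 743 CPM for wild type libraries and to 657, 606 and 767 CPM for knockout libraries, which overlapped (a sum chosen after seeing the data). The 10 epithelial markers, led by Krt14, summed to 654 to 789 CPM and 331 to 590 CPM in the same order, and 0 of them was at 0 in all libraries. In bulk tissue, fewer cells of a type and less RNA per cell cannot be told apart.

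None of the 6 tested members passed the threshold of an adjusted p of 0.05 in edgeR's quasi-likelihood test, where 76 of 14233 tested genes (0.534%) did. DESeq2 and limma voom also called 0 members. At an unadjusted p under 0.05, 3 members were higher in the knockout, Dlx1, Dlx5 and Dlx6, against 7.51% of all tested genes, and 0 were lower, against 6.69%. Dlx1 lay close to that cutoff (edgeR, unadjusted p = 0.0487), and other methods on the same libraries put 2 to 4 members under it. Dlx5 and Dlx6 were the 2 members whose knockout libraries all lay above all wild type libraries, a pattern found in 12.3% of tested genes, while 0 members lay wholly below, as 11.2% of genes did; either kind of separation occurred in 23.5% of genes. Of the 6 members, 1 had a negative log2 fold change, Msx2, against 48.5% of genes. The median log2 fold change was 0.50 over the 6 tested members and 0.011 over all tested genes, and without knockout replicate 2 these medians were 0.27 and 0.016. Without that library 0 of 6 members passed, where 2.12% of genes did. There 2 members, Dlx5 and Dlx6, were higher at an unadjusted p under 0.05, where 7.22% of genes were, and 0 were lower, where 9.27% were.

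**Figure D1:**
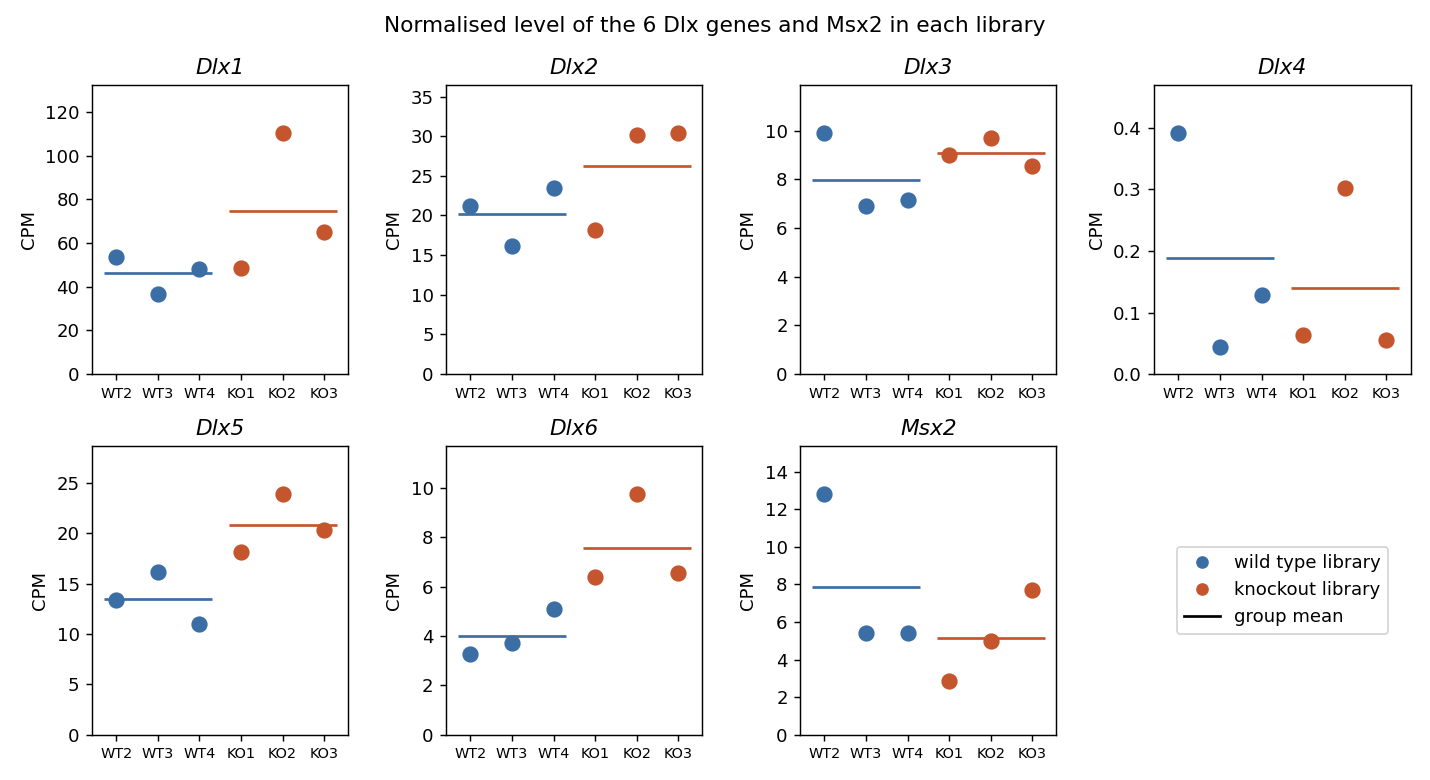
Normalised level (CPM, linear axes starting at 0) of each member in each of the 6 libraries, points by library and lines at group means. The knockout points of Dlx5 and Dlx6 all lie above the wild type points, Dlx1 is highest in knockout replicate 2 at 110.3 CPM, and Msx2 is highest in wild type replicate 2 at 12.8 CPM.

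Levels of different genes can be compared only per length, so CPM were also divided by the kilobases of merged exons in GENCODE M21. On that scale the wild type order was Dlx1 at 8.56 ± 1.60, Dlx2 at 7.09 ± 1.30, Dlx5 at 5.97 ± 1.14, Dlx3 at 3.06 ± 0.638, Msx2 at 2.41 ± 1.30, Dlx6 at 1.69 ± 0.396 and Dlx4 at 0.0577 ± 0.0553 CPM per kilobase (SD, n = 3 each). Neighbours in this order overlapped between libraries except at 2 steps, from Dlx5 down to Dlx3 and from Dlx6 down to Dlx4. In the knockout, Dlx1 led at 13.8 ± 5.91, followed by Dlx5 at 9.19 ± 1.28 and Dlx2 at 9.18 ± 2.45 CPM per kilobase (SD, n = 3 each), whose ranges overlapped. Dlx3 followed at 3.48 ± 0.218, Dlx6 at 3.19 ± 0.798, Msx2 at 1.58 ± 0.738 and Dlx4 at 0.0430 ± 0.0430 CPM per kilobase (SD, n = 3 each). The knockout ranges of Dlx3 and Dlx6 overlapped. Dlx6 per kilobase lay above Msx2 in every knockout library, whereas in the wild type their ranges overlapped.

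Dlx5 and Dlx6, the pair known for specifying lower jaw identity, with Dlx5 also active in osteoblast development, showed the steadiest difference among the members. Wild type replicates 2, 3 and 4 had 13.4, 16.1 and 10.98 CPM of Dlx5, while knockout replicates 1, 2 and 3 had 18.2, 23.9 and 20.3 CPM. The groups did not overlap, and wild type replicate 3 and knockout replicate 1 stood closest. The fitted log2 difference of Dlx5 was 0.62 (standard error 0.18), a 1.54-fold difference with a 95% interval of 1.15 to 2.07 before adjustment (edgeR, adjusted p = 0.239; DESeq2, adjusted p = 0.1003). Of all tested genes, 4.20% had a smaller p than Dlx5.

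The level of Dlx6 was 3.27, 3.72 and 5.08 CPM in wild type libraries and 6.39, 9.76 and 6.57 CPM in knockout libraries. Its groups did not overlap either, with knockout replicate 2 highest. The fitted log2 difference of Dlx6 was 0.91 (standard error 0.26), a 1.88-fold difference with a 95% interval of 1.22 to 2.88 before adjustment (edgeR, adjusted p = 0.238; DESeq2, adjusted p = 0.0778). Without knockout replicate 2 the log2 fold changes were 0.50 for Dlx5 and 0.68 for Dlx6 (edgeR, adjusted p = 0.172 and 0.195). Of the mesenchyme markers, Prrx1 and Osr1 (log2 fold change 0.44 and 0.55) were likewise higher in all 3 knockout libraries than in all 3 wild type libraries. Prrx2 and Twist2 (-0.79 and -1.03) were lower in all 3 knockout libraries than in all 3 wild type libraries. The sum of the 11 markers other than Prrx1 overlapped between groups. The part of these markers in the Dlx5 and Dlx6 values was not tested. The 6 osteoblast markers summed to 160, 117 and 53.3 CPM for wild type libraries and 80.0, 177 and 25.9 CPM for knockout libraries, with the groups overlapping and 0 of the 6 at 0 in all libraries.

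The Dlx5/Dlx6 locus also makes Dlx6os1, a long noncoding RNA known as Evf2 that in mouse forebrain takes part in the control of Dlx5 and Dlx6 by their shared enhancers. Dlx6os1, listed under its older symbol Dlx6as1, had 4.41, 5.60 and 4.95 CPM in wild type libraries, against 5.88, 18.3 and 14.03 CPM in knockout libraries. All knockout libraries lay above the wild type, but knockout replicate 1 only narrowly so. The fitted log2 difference of Dlx6os1 was 1.35 (standard error 0.38; edgeR, adjusted p = 0.229; DESeq2, adjusted p = 0.031; limma voom, adjusted p = 0.320). It was 1.003 without knockout replicate 2 (edgeR, adjusted p = 0.194). In GENCODE M21 Dlx6os1 runs antisense across Dlx6, sharing 0 exonic bases with it, and Dlx6os2 shares 104 of the 2375 exonic bases of Dlx6; the strand setting of the counting is not stated, so reads there cannot be assigned to a strand.

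RefSeq (build GRCm38.p6) gives a start of Dlx6os1 between Dlx6 and Dlx5, shown because this noncoding RNA differed in the same direction as both neighbours. Each window here runs from 250 bases before to 50 bases after a start, on the gene's strand, and capitals mark TAATT or its reverse complement AATTA, the core that Dlx and Msx homeodomains bind; the 6 letters TAATTA hold both and count as 2 starts.
Dlx6os1 (chr6:6869484-6869783, minus strand): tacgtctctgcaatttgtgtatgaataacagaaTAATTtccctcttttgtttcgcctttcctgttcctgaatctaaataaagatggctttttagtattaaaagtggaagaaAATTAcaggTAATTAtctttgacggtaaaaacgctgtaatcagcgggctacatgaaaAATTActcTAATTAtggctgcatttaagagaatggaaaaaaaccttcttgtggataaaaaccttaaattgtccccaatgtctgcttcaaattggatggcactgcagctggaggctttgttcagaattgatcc
The window held 7 starts of the motif, and a second Dlx6os1 start listed in RefSeq held 4. At least 1 start was found in 27.0% of 32851 promoter windows of the same length, and 4 or more in 1.65%. The motif holds only A and T, and the printed window held 35.7% G and C, against a median of 52.7% over all windows. No share was computed for windows of like composition, so whether 7 starts are many for such a window was not tested. The starts are matches of letters in another build than the mm9 of the counts, not measured binding sites.

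The protein-coding neighbours of Dlx5 and Dlx6 had smaller log2 fold changes than the pair. Sem1, a proteasome subunit gene listed as Shfm1, had a log2 fold change of -0.079, with 82.8 CPM on average over wild type libraries (edgeR, adjusted p = 0.887). Slc25a13, a mitochondrial aspartate-glutamate carrier, had one of 0.018 (adjusted p = 0.965), and Sdhaf3, an assembly factor of succinate dehydrogenase listed as Acn9, one of 0.26 (adjusted p = 0.626). Tac1, which encodes substance P, had one of 0.28 with a standard error of 0.65, from 143 read pairs over all 6 libraries. The signs for Sem1, Slc25a13 and Tac1 changed in some fits with a library left out. Whether the pair differs from its neighbours was not tested.

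**Figure D2:**
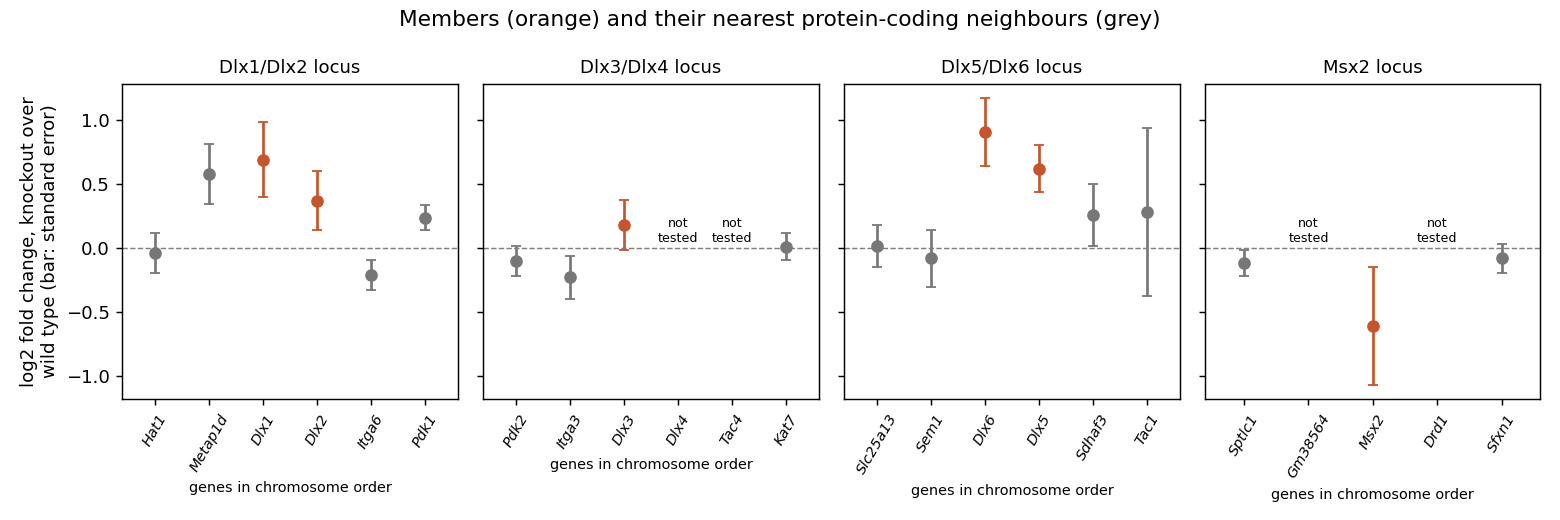
Log2 fold change of knockout over wild type, with standard error bars, for the members (orange) and the 2 nearest protein-coding genes on each side (grey), in chromosome order with no distances drawn. Dlx6 at 0.91 and Dlx5 at 0.62 lie above Slc25a13 at 0.018, Sem1 at -0.079 and Sdhaf3 at 0.26, whereas Metap1d at 0.58 lies beside Dlx1 at 0.69.

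Dlx1 and Dlx2 act together in the maxillary arch, which forms the palatal shelves, and in interneurons of the forebrain. Dlx1 reached 53.8, 36.8 and 48.0 CPM in wild type libraries and 48.7, 110.3 and 64.9 CPM in knockout libraries. The groups overlapped, since knockout replicate 1 lay below wild type replicate 2, and knockout replicate 2 stood far above the rest. For Dlx1 the log2 fold change was 0.69 with a standard error of 0.29 (edgeR, adjusted p = 0.350), and it was 0.29 without knockout replicate 2 (adjusted p = 0.511). Dlx1 had the highest level of the members, at the 77.8th percentile of tested genes by mean CPM.

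Wild type libraries had 21.1, 16.2 and 23.4 CPM of Dlx2, and knockout libraries 18.2, 30.1 and 30.4 CPM. Knockout replicates 2 and 3 lay above all wild type libraries, and knockout replicate 1 within their range. For Dlx2 the log2 fold change was 0.37 with a standard error of 0.23, so the 95% interval before adjustment ran from 0.892-fold to 1.88-fold (edgeR, adjusted p = 0.472). Without knockout replicate 2 it was 0.25 for Dlx2 (adjusted p = 0.674). Dlx1as, the antisense RNA of the locus, had 9.29, 4.44 and 9.77 CPM in wild type libraries and 4.56, 7.42 and 8.34 CPM in knockout libraries, giving a log2 fold change of -0.21 (adjusted p = 0.794) whose sign depended on single libraries. Dlx1as therefore did not follow the order of Dlx1 across the libraries, being lower in knockout replicate 2 than in knockout replicate 3. In GENCODE M21 it shares 335 of the 5396 exonic bases of Dlx1, or 6.21%.

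The RefSeq windows at the starts of Dlx1 and Dlx2 (GRCm38.p6) are shown as the contrast to that of Dlx6os1, since they are GC-rich.
Dlx1 (chr2:71529195-71529494, plus strand): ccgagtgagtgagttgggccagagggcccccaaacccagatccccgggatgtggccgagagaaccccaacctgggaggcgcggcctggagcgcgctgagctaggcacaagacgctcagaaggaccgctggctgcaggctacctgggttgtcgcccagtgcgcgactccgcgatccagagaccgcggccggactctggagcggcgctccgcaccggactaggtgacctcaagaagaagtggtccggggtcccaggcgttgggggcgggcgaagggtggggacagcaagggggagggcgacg
Dlx2 (chr2:71546705-71547004, minus strand): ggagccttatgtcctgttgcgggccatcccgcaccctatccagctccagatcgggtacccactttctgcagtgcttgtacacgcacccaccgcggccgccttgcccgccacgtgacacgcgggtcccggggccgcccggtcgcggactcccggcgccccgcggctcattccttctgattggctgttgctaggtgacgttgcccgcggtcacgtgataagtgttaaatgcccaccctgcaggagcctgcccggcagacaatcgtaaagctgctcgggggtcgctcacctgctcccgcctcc
The Dlx1 window held 27 CpG dinucleotides and 69.3% G and C, and the Dlx2 window 29 and 66.3%, against medians of 7 and 52.7% over the 32851 windows. The Dlx6os1 window above held 5 CpG dinucleotides and 35.7% G and C. Neither the Dlx1 nor the Dlx2 window held TAATT on either strand. The Dlx2 window held the CCAAT box (CCAAT or ATTGG, present in 37.4% of windows), and the Dlx1 window did not.

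Among the neighbours of Dlx1 and Dlx2, Metap1d, a mitochondrial methionine aminopeptidase next to Dlx1, had 11.8, 14.1 and 8.61 CPM in wild type libraries, against 16.6, 21.3 and 13.8 CPM in knockout libraries. Its groups overlapped only between wild type replicate 3 and knockout replicate 3, with a log2 fold change of 0.58 (edgeR, adjusted p = 0.336). Pdk1, a pyruvate dehydrogenase kinase, had a log2 fold change of 0.24, Hat1, a histone acetyltransferase, one of -0.035 (0.10 without knockout replicate 2), and Itga6, a laminin receptor subunit, one of -0.21 (-0.14 without that library; edgeR, adjusted p = 0.343, 0.929 and 0.426).

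Dlx3 and Dlx4 are the remaining pair. Dlx4 was the lowest member, whereas Dlx3 averaged above Dlx6 in both groups (3.06 and 1.69 CPM per kilobase in the wild type, 3.48 and 3.19 in the knockout). In the knockout their ranges overlapped, and in knockout replicate 2 Dlx6 was the higher of them (4.11 against 3.72 CPM per kilobase). Dlx3, a regulator of placenta, epidermis, hair, tooth enamel and bone that is mutated in human tricho-dento-osseous syndrome, showed 9.89, 6.90 and 7.15 CPM in wild type libraries and 8.98, 9.69 and 8.56 CPM in knockout libraries. The groups overlapped because wild type replicate 2 was the highest of all 6 libraries. For Dlx3 the log2 fold change was 0.18 with a standard error of 0.19, and its 95% interval before adjustment ran from 0.830-fold to 1.55-fold (edgeR, adjusted p = 0.671). Without knockout replicate 2 it was 0.12 for Dlx3 (adjusted p = 0.829). Markers of epithelium summed lower in all 3 knockout libraries than in all 3 wild type libraries, as given above, and Dlx3 did not follow that order.

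Dlx4 was close to the limit of detection, with 11, 1 and 3 read pairs in the wild type libraries and 1, 4 and 1 in the knockout libraries. The filter on low counts removed it. In the fit with no filter its log2 fold change was -0.66 with a standard error of 0.98 (edgeR, adjusted p = 0.757), and the 95% interval before adjustment, which includes the spread between libraries, ran from 0.141-fold to 2.85-fold. Over the groups the 6 knockout and 15 wild type pairs gave a depth-adjusted ratio of 0.625 with a 95% exact counting interval of 0.199 to 1.70, which covers counting error only, and 11 of the 15 wild type pairs came from replicate 2. A difference in Dlx4 was not detectable with these counts and this spread. The neighbours of this pair, the acetyltransferase gene Kat7, the integrin gene Itga3 and the kinase gene Pdk2, had log2 fold changes of 0.012, -0.23 and -0.096 (edgeR, adjusted p = 0.966, 0.542 and 0.714), with the sign for Kat7 depending on the scaling and Itga3 at -0.095 without knockout replicate 2, and Tac4, a tachykinin gene, had 0 pairs in all libraries.

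Msx2, a homeodomain repressor of the skull and teeth, was the member with the widest spread. Its level was 12.8, 5.42 and 5.42 CPM in wild type libraries and 2.85, 4.99 and 7.68 CPM in knockout libraries. Wild type replicate 2 lay above all other libraries, and the remaining 5 libraries of the groups were intermixed. For Msx2 the log2 fold change was -0.61 with a standard error of 0.46, and the 95% interval before adjustment ran from 0.313-fold to 1.38-fold (edgeR, adjusted p = 0.549). Without wild type replicate 2 the log2 fold change was -0.064 (adjusted p = 0.963), without knockout replicate 3 it was -1.02 (adjusted p = 0.288), and without knockout replicate 2 it was -0.59 (adjusted p = 0.705). The size of the Msx2 difference thus rested on single libraries.

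Msx1, the close relative of Msx2 that drives growth of the anterior palate, had 44.5, 19.4 and 68.0 CPM in wild type libraries and 135, 51.2 and 88.9 CPM in knockout libraries. The groups overlapped, with the lowest value in wild type replicate 3 and the highest in knockout replicate 1. For Msx1 the log2 fold change was 1.06 with a standard error of 0.48 (edgeR, adjusted p = 0.367). With knockout replicate 1 left out it was 0.67 and with wild type replicate 3 left out 0.71, whereas leaving out wild type replicate 4 gave 1.52. The neighbours of Msx2 with enough reads, Sptlc1 and Sfxn1, had log2 fold changes of -0.11 and -0.079 (adjusted p = 0.609 and 0.765). Drd1, the dopamine receptor gene next to Msx2, had 38 read pairs over all libraries and was not tested, and the predicted gene Gm38564 was not analysed here.

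The RefSeq window at the start of Msx2 (GRCm38.p6) is shown because it held both the GC-rich composition of the Dlx1 and Dlx2 windows and the homeodomain core.
Msx2 (chr13:53472731-53473030, minus strand): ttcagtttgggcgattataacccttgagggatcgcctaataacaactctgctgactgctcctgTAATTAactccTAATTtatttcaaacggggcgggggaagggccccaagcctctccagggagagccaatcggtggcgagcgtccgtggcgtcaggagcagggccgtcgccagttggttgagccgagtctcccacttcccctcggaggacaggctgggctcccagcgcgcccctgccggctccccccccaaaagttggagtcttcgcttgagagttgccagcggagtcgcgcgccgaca
It held 3 starts of the TAATT motif, 22 CpG dinucleotides, 61.0% G and C, and a CCAAT box.

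**Figure D3:**
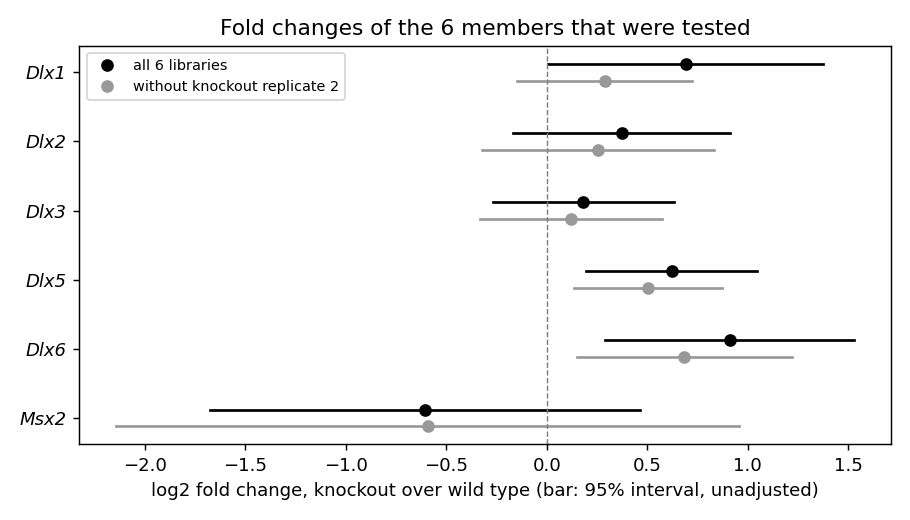
Log2 fold change of knockout over wild type with 95% intervals (not adjusted for multiple testing) for the 6 tested members, with all 6 libraries in black and without knockout replicate 2 in grey. The intervals of Dlx5 and Dlx6 lie above 0 in both fits, that of Dlx1 includes 0 without that library (0.29), and that of Msx2 is the widest in both, from -1.68 to 0.46 with all libraries.

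Whether the genes of a pair kept their ratio was asked with counts from the same library, in which depth cancels. The log2 ratio of Dlx6 to Dlx5 was -2.03, -2.11 and -1.11 for wild type libraries and -1.50, -1.29 and -1.62 for knockout libraries, so that the groups overlapped through wild type replicate 4 alone, the other wild type values lying below every knockout value. The mean difference was 0.28 (0.60 with wild type replicate 4 left out, 0.14 with replicate 2 and 0.097 with replicate 3 of that group left out), and a two-sided exact permutation of the libraries gave p = 0.4 (adjusted over 3 pairs, p = 0.6). For Dlx1 over Dlx2 the log2 ratio was 1.35, 1.19 and 1.03 for wild type libraries and 1.42, 1.87 and 1.09 for knockout libraries, a mean difference of 0.27 (exact permutation p = 0.4, adjusted p = 0.6) that was 0.069 without knockout replicate 2. The ratio of Dlx4 to Dlx3 rested on 1 to 11 read pairs of Dlx4 and differed by -0.41 on the log2 scale (exact permutation p = 0.6, adjusted p = 0.6), and by 0.095 without wild type replicate 2. With 3 against 3 libraries this test cannot give a p below 0.1. Of all Dlx read pairs, Dlx1 and Dlx2 together made up 66.4% to 75.4% in the wild type and 66.6% to 76.3% in the knockout, and Dlx5 and Dlx6 together 16.4% to 24.9% and 18.3% to 24.4%. These shares were not divided by exon length (5396 bases for Dlx1, 2855 for Dlx2, 2263 for Dlx5 and 2375 for Dlx6). They therefore compare the groups and not the levels of the loci.

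**Figure D4:**
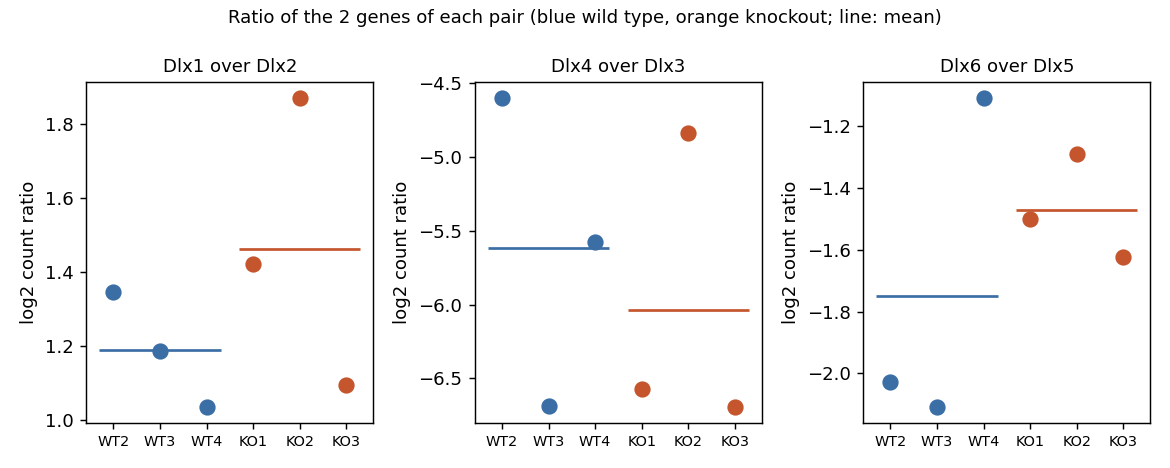
Log2 ratio of read pairs between the 2 genes of each Dlx pair in each library, with lines at group means. Wild type and knockout points overlap in all 3 pairs, and the Dlx1 over Dlx2 ratio is highest in knockout replicate 2 at 1.87.

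Genes known to act around the members were taken from 6 lists, described by counts only, beside 0.0984% of all tested genes that rose and 0.436% that fell past the threshold. At an unadjusted p under 0.05, 7.51% of all tested genes were higher and 6.69% lower. Of 22 genes of BMP signalling, which induces Msx2 and Dlx5, 0 rose and 0 fell in edgeR (2 were lower at an unadjusted p under 0.05; DESeq2 called 1, Grem1), with a median log2 fold change of 0.029. The smallest p of that list belonged to Grem1, a secreted BMP antagonist, at 6.87, 6.09 and 4.74 CPM in wild type libraries and 2.02, 1.97 and 3.26 CPM in knockout libraries, where the groups did not overlap (log2 fold change -1.27, edgeR, adjusted p = 0.143; DESeq2, adjusted p = 0.00772). Of 12 tested genes of endothelin signalling and arch patterning, which act above and below Dlx5 and Dlx6, 0 rose and 0 fell in edgeR. In that list 3 were lower at an unadjusted p under 0.05, and DESeq2 called 1, Ece1. Of the 12, 10 had a negative log2 fold change, against 48.5% of all tested genes, and the median was -0.22. Ece1, the enzyme that releases active endothelin, had the smallest p, at 131 ± 4.52 CPM over wild type libraries and 101 ± 11.2 CPM over knockout libraries (SD, n = 3 each; edgeR, adjusted p = 0.242; DESeq2, adjusted p = 0.044). Among cell type markers, log2 fold changes were negative in 6 of 6 for endothelium, 10 of 10 for epithelium and 7 of 12 for palatal mesenchyme. The part of these cell types in the endothelin and arch list was not tested.

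Of 14 genes of GABA neurons, the best known targets and partners of Dlx1 and Dlx2 in the forebrain, 4 were tested and 0 rose or fell in edgeR, with 2 higher at an unadjusted p under 0.05, Lhx6 and Lhx8, which DESeq2 called. Lhx8, a LIM homeobox factor also needed in palate mesenchyme, had the smallest p of these, at 55.0, 59.1 and 62.3 CPM in wild type libraries and 105, 116 and 77.7 CPM in knockout libraries. The groups of Lhx8 did not overlap (log2 fold change 0.76, edgeR, adjusted p = 0.115; DESeq2, adjusted p = 0.00263; edgeR with single libraries left out, adjusted p from 0.044 without knockout replicate 2 to 0.486). Gad1 and Gad2, which make GABA, averaged 0.0999 and 0.279 CPM over wild type libraries and 0.799 and 0.793 CPM over knockout libraries, too low to test, and Gsx2 and Npas1 were at 0 in all libraries. The 10 markers of neurons and brain summed to 135, 205 and 128 CPM for wild type libraries and 74.3, 250 and 187 CPM for knockout libraries, highest in knockout replicate 2, as Dlx1 was, and their part in its value was not tested.

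Of 10 tested osteoblast genes, where Dlx5 and Msx2 are known to act with opposite effects, 0 rose and 2 fell, 5 had a negative log2 fold change and the median was -0.16. At an unadjusted p under 0.05, 1 was higher, Phex, with 26.2 CPM in knockout replicate 2 and 3.44 to 6.30 CPM in the other libraries, and 3 were lower, Col1a1, Col1a2 and Sparc. The members past the threshold were Col1a1, a fibrillar collagen chain, at 2899, 2123 and 1686 CPM in wild type libraries and 796, 744 and 588 CPM in knockout libraries, and Sparc, a collagen-binding matrix protein, at 512, 462 and 453 CPM and 251, 218 and 246 CPM (edgeR, adjusted p = 0.0375 and 0.0212). With single libraries left out, Col1a1 passed in none of the fits (adjusted p from 0.0795 to 0.189), and Sparc passed only without knockout replicate 2 (0.000527, otherwise up to 0.165). The log2 fold changes stayed close to those with all libraries, at -1.83 to -1.43 for Col1a1 and -1.04 to -0.94 for Sparc. Of 13 tested epidermis genes around Dlx3, 0 rose and 0 fell in edgeR (2 were lower at an unadjusted p under 0.05; DESeq2 called 1, Krt15), and 12 of 13 had a negative log2 fold change, against 48.5% of all tested genes. The epithelial markers, which share Krt5, Krt14, Krt15, Trp63 and Grhl2 with this list, were negative in 10 of 10, and their part in it was not tested. Krt15, a basal keratin, had the smallest p of that list, at 92.8 ± 13.8 CPM over wild type libraries and 33.6 ± 11.6 CPM over knockout libraries (SD, n = 3 each; edgeR, adjusted p = 0.0771; DESeq2, adjusted p = 6.18e-06). Without knockout replicate 2 the log2 fold change of Krt15 was -1.22 and passed (edgeR, adjusted p = 0.0041). Of the 4 antisense RNAs of the Dlx pairs, 2 were tested, Dlx1as and Dlx6os1, and 0 rose or fell in edgeR, where 1, Dlx6os1, had an unadjusted p under 0.05.

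The profiles of the members over the 6 libraries were compared by the root mean square difference of log2 CPM, centred per gene. The Dlx members lay 0.28 to 0.49 apart from each other, with Dlx1 and Dlx2 closest at 0.28, and Msx2 lay 0.63 to 1.02 from each of them, farthest from Dlx6. Dlx5 and Dlx6 were 0.36 apart, and each had a nearer member outside its pair, Dlx3 for Dlx5 and Dlx1 for Dlx6 (both 0.33). Among all tested genes the most alike to Dlx1 was Trps1, a zinc finger repressor, at 0.073, with 101, 70.7 and 87.1 CPM in wild type libraries and 81.5, 186 and 117 CPM in knockout libraries, followed by Disc1 at 0.077. The most alike to Dlx2 were Nr2f2, an orphan nuclear receptor, at 0.073 and Car10 at 0.093. Those nearest to Dlx3 were Pcdhga2 and Amacr, to Dlx5 Fgd4 and Atf7ip2, to Dlx6 Larp1b and Ccdc28a, and to Msx2 Sertm1 and Slit1, with differences of 0.069 for Pcdhga2 to 0.23 for Slit1. The median difference from a member to all tested genes ran from 0.31 for Dlx3 to 0.69 for Msx2. Dlx3 lay farther than its median from every other tested member, the nearest being Dlx2 at 0.32. Dlx1, Dlx2, Dlx5 and Dlx6 lay within their own medians (0.55, 0.42, 0.44 and 0.57) of the other tested Dlx members. Msx2 lay within its median of Dlx2 (0.65) and Dlx3 (0.63), and beyond it from Dlx1, Dlx5 and Dlx6. These likenesses describe 6 libraries and were picked as the smallest of many.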

How the data were processed

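Palatal shelf RNA was sequenced as paired 25 bp reads from a stranded mRNA kit, per the labels' protocols. Per the submitters' processing notes the tools were TopHat2, SAMtools and HTSeq and the build mm9; no version, annotation or strand setting is given in the sources used here. Each file holds raw, unnormalised counts per gene symbol, deposited by the authors, and 5 category lines, which entered neither library sizes nor tests. Of the listed total, pairs outside genes made up 12.3% to 47.5%, not unique 18.1% to 30.3% and ambiguous 0.168% to 0.439%. Ambiguous pairs made up 0.411% to 0.439% in wild type libraries and 0.273%, 0.168% and 0.329% in knockout replicates 1, 2 and 3. The scaling factors were 1.13, 1.07 and 1.06 for wild type libraries and 0.837, 1.04 and 0.896 for knockout libraries.

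Groups and replicate numbers came from the sample titles. Libraries of 1 group differed by more than sampling noise (chi-square per degree of freedom 11.0 to 153). Counts were scaled by the trimmed mean of M-values, filtered by filterByExpr (14233 of 23366 genes kept) and tested with edgeR 4.0.16's robust quasi-likelihood test in R 4.3.3, Benjamini-Hochberg adjusted over all tested genes at 0.05, after tests on simulated data. Standard errors were computed from the log2 fold change and F statistic of that fit, and 95% intervals from these with a t quantile. The intervals therefore restate the unadjusted p-values. Within-pair ratios used a pseudocount of 0.5 and likeness an added 0.1 CPM. Alternatives were other size factors and filters, DESeq2 1.42.0, limma 3.58.1 voom, the earlier edgeR method, each library left out and a replicate block. P-values measure the spread between these libraries, which the labels call biological replicates.

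The members, lists and tests were chosen with earlier results of these data known. Named beside the members were list genes past the threshold or else the smallest p of a list, and the highest marker of a cell type. Also named were the 2 nearest protein-coding genes on each side of a locus (RefSeq order, GRCm38.p6) and the 2 genes most alike to each tested member. Msx1, Dlx1as, Lhx6, Phex, Col1a2, Gad1, Gad2, Gsx2 and Npas1 were added as list members after their values were seen. Osr1, Prrx2 and Twist2 were added likewise from the mesenchyme markers. RefSeq windows matched 3 of the 7 members by symbol, Dlx1, Dlx2 and Msx2. Exon lengths came from GENCODE M21, another build than the counts, and no mm9 coordinates are printed. The other marker lists were led by Dcx (neuron and brain), Ttn (skeletal muscle), Cdh5 (endothelium), Mrc1 (macrophage), Alas2 (red blood cell), Alpl (osteoblast) and Erbb3 (Schwann cell).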

Additional observations from a re-analysis of the deposited data

How the results depend on the processing

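The 6 tested members kept the sign of their log2 fold change in all 14 alternatives each. Members at an unadjusted p under 0.05 numbered 3 in the main fit, in DESeq2, in the earlier edgeR method and with no filter. They numbered 2 with RLE or upper quartile size factors, limma voom or a filter of 1 CPM in 3 libraries, and 4 with the replicate block. With single libraries left out they numbered 4 without knockout replicate 1 and 2 otherwise. The number of members past the threshold was 0 in all alternatives except the replicate block, where it was 1, Dlx1 (log2 fold change 0.93, adjusted p = 0.012). That block uses only replicate numbers 2 and 3, which both groups share. The labels name no batch or litter, so the numbers were not taken as pairs. Deviations of same-numbered libraries from their group means correlated at 0.21 and -0.14 across genes. Deviations within a group of 3 sum to 0, so these values are not independent of each other and cannot decide whether the numbers are pairs. The number of all genes past the threshold was 76, and became 486 in DESeq2, 301 with the replicate block and 0 to 307 with single libraries left out (0 without wild type replicate 2 or 3, where edgeR gave 1103 and 1117 genes an unadjusted p below 0.05, 3 without wild type replicate 4, 20 without knockout replicate 1, 11 without knockout replicate 3 and 307 without knockout replicate 2); the cause was not tested. Leaving out single libraries gave log2 fold changes of 0.29 to 0.92 for Dlx1, 0.23 to 0.58 for Dlx2, 0.087 to 0.37 for Dlx3, 0.49 to 0.77 for Dlx5, 0.68 to 1.11 for Dlx6 and -1.02 to -0.064 for Msx2. Signs changed for the following values: with single libraries left out the Dlx4 over Dlx3 ratio spanned -1.01 to 0.095, Dlx1as from -0.49 to 0.0083 (0.29 with the replicate block), Hat1 from -0.13 to 0.10, Kat7 from -0.058 to 0.061 (-0.0019 with upper quartile scaling, -0.021 with no filter), Slc25a13 from -0.11 to 0.15 (-0.015 with no filter), Sem1 from -0.27 to 0.14, Sfxn1 from -0.16 to 0.0034 and Tac1 from -0.58 to 0.83 (-0.015 with the replicate block). Dlx4 was limited by its counts, which alone left a ratio between 0.199 and 1.70, and by the spread between libraries.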

Other observations

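Markers of other cell types differed between libraries beside the members. The 9 skeletal muscle markers summed to 340 to 666 CPM in the wild type and to 482, 11402 and 282 CPM in knockout replicates 1, 2 and 3, with Ttn alone at 10160 CPM in knockout replicate 2. The 6 endothelial markers summed to 257 to 284 CPM in the wild type and 203 to 233 CPM in the knockout, and the 6 macrophage markers to 53.4 to 58.9 and 36.6 to 40.0 CPM. The 5 red blood cell markers summed to 23.6 to 43.4 and 13.3 to 47.4 CPM, and the 5 Schwann cell markers to 64.6 to 68.0 and 53.1 to 71.6 CPM. The part of these differences in the values of the Dlx genes and Msx2 was not tested.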
